A study of Rattus norvegicus with 372 samples.

Results

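The wells described here are those that received the high concentration of a drug with a class of drug-induced liver injury (DILI) concern. The larger concentration of each of 13 drugs was taken from the whole transcriptome (WT) assay, which gave 78 of the 372 samples of the series. Each drug had 6 wells, 3 in each of 2 batches. DILI concern is a ranking of how strongly a drug is tied to liver injury in patients, and the study lists it per drug as most, less or no concern. Of the 13 drugs, 7 were of most concern (42 wells), 4 of less concern (24 wells) and 2 of no concern (12 wells). WY14643, a PPAR alpha agonist without a class, was left out. The drug was the unit of comparison: wells and batches were averaged to 1 value per drug, and 7 drugs of most concern were set against the 6 of less or no concern.

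Primary hepatocytes from male Wistar rats were held between layers of collagen and exposed for 24 h with 0.5% DMSO in every treated and vehicle well. The 2 batches used hepatocytes from different animals, so within a batch all drugs were tested on the same cell isolate. Libraries were also made and sequenced separately for each batch. In TempO-Seq, 2 oligos that bind next to each other on a transcript are joined, amplified and sequenced, and the reads of each pair are counted. The class of most concern held acetaminophen (10000 µM), diclofenac (400 µM), indomethacin (300 µM), isoniazid (10000 µM), ketoconazole (15 µM), sulfasalazine (100 µM) and valproic acid (10000 µM). Less concern applied to doxorubicin (2 µM), naproxen (2000 µM), ranitidine (4000 µM) and simvastatin (60 µM), and no concern to caffeine (10000 µM) and chloramphenicol (450 µM). These concentrations came from an earlier toxicogenomics resource, Open TG-GATEs, where cell survival or solubility set them, so they were not matched between drugs, with a median of 400 µM in the most concern class and 1225 µM in the other. Vehicle wells, 3 in batch 1 and 6 in batch 2, were treated with DMSO alone.

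The hepatocyte is the main drug-metabolizing cell of the body, and it also makes bile acids, urea and most plasma proteins. Injurious drugs can act on it through reactive metabolites, which the NRF2 pathway and glutathione conjugation counter, through stress of the endoplasmic reticulum or mitochondria, or through blocked bile acid export. Many drugs also switch on receptors such as AhR, CAR, PXR and PPAR alpha, which raise transcription of the enzymes that clear drugs and fatty acids, and hepatocytes in culture lose part of their liver program when stressed.

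Read depth overlapped between the classes. WT wells at high concentration had 3639634 to 8882292 counted reads in the most concern class (median 6631785) and 3915685 to 8975207 in the other (median 6625955), beside 5492941 to 8264980 in vehicle wells. Read counts scaled to a common library size (CPM) of the hepatocyte markers Alb, Ttr, Tf, Apoa1 and Hnf4a summed to between 36156 and 43718 in vehicle wells. In drug means, the sum ran from 7986 to 42645 for most concern (median 25622) and from 13835 to 39970 for less or no concern (median 22182). No marker of Kupffer cells and leukocytes, stellate cells, endothelium or bile ducts that the assay measured was at 0 in every well. The 14 Kupffer cell and leukocyte markers summed to 41.0 to 109 CPM over the most concern drugs and 43.6 to 142 CPM over the others. In vehicle wells they summed to 88.1 to 130 CPM. The highest sum, with ranitidine, does not stand for the single markers. Of the 8 tested, 6 were lower and 2 higher than vehicle with that drug (median log2 change -1.82). Cd14, which hepatocytes also express, was higher by 1.88. The 11 stellate cell and matrix markers summed to 44.9 to 175 CPM and 37.9 to 138 CPM in the 2 classes, beside 96.1 to 294 CPM in vehicle wells. The part of these cells in the results was not tested, and in bulk wells fewer cells of a type and less RNA per cell cannot be told apart.

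At high concentration the drugs moved between 1974 and 8043 of 10191 genes against vehicle, and the classes overlapped in how much they moved. Acetaminophen, an analgesic, had the most genes called by edgeR (adjusted p under 0.05), with 38.8% of the genes tested higher and 40.1% lower than vehicle. Diclofenac, a non-steroidal anti-inflammatory drug (NSAID), followed with 36% higher and 35.8% lower. Valproic acid, an antiepileptic drug that also inhibits histone deacetylases, had 33.5% higher and 33.2% lower. These 3 drugs of most concern were joined by 2 drugs of the other class with almost as many calls. Caffeine had 34.6% of genes higher and 31.6% lower, and ranitidine, a histamine H2 receptor blocker, had 32.3% higher and 33.9% lower. Of the remaining most concern drugs, indomethacin, another NSAID, had 27.1% higher and 27.6% lower. Ketoconazole, an azole antifungal drug, had 25% higher and 26.3% lower. Both lay close to naproxen, the NSAID of less concern, with 27.6% higher and 26.2% lower. Sulfasalazine, used in inflammatory bowel disease, had 21.3% higher and 19.6% lower. Isoniazid, used against tuberculosis, had 17.4% higher and 17.3% lower, the fewest calls of its class. Fewer genes than in any most concern drug were called for chloramphenicol, an antibiotic (16.1% higher, 17.2% lower), for simvastatin, an inhibitor of HMG-CoA reductase (11.4% higher, 12.5% lower) and for doxorubicin, an anthracycline (9.07% higher, 10.3% lower).

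**Figure D1:**
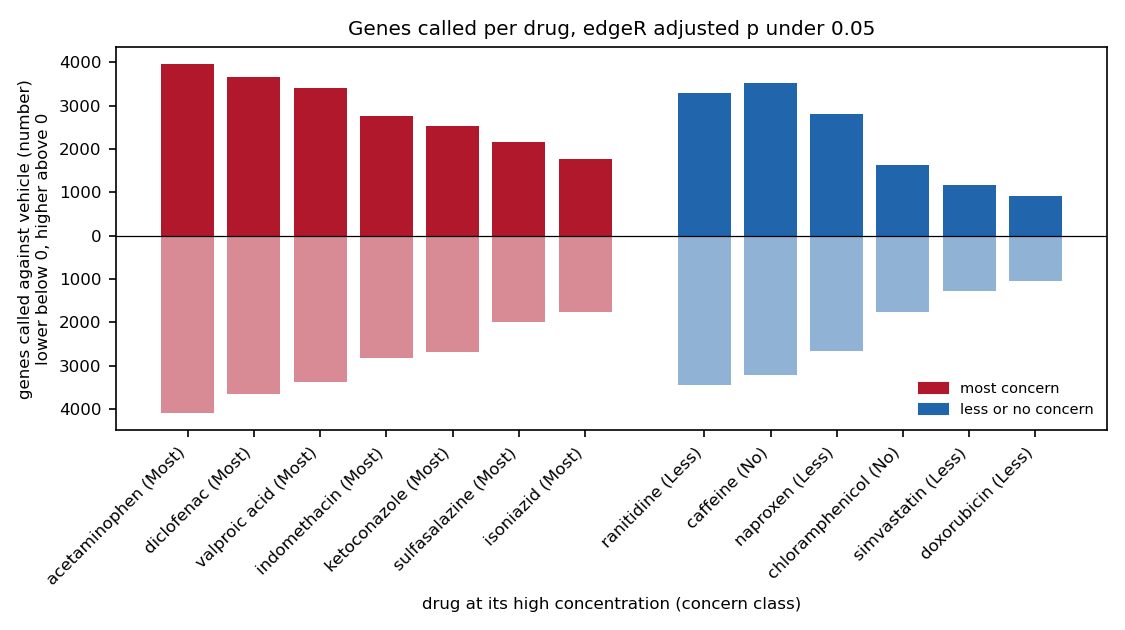
Number of genes called against vehicle for each drug at its high concentration, with genes higher than vehicle above 0 and genes lower than vehicle below 0, in red for the 7 most concern drugs and in blue for the 6 less or no concern drugs. The totals run from 3537 to 8043 in the first class and from 1974 to 6746 in the second, and their ranges overlap.

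The mean number of genes called was 5809 ± 1656 (SD, n = 7 drugs) for most concern and 4462 ± 2140 (SD, n = 6 drugs) for less or no concern. The difference of 1347 genes had an interval from -1004 to 3697 (95%, from the shifts that the permutation test does not reject) and did not exceed the spread between drugs (exact permutation test over all ways of choosing 7 of the 13 drugs, two-sided, p = 0.216, adjusted p = 0.361 over 2 measures). The root mean square (RMS) of the log2 change over all genes, a measure that needs no call, was 0.764 ± 0.292 (SD, n = 7) against 0.621 ± 0.256 (SD, n = 6). Its difference of 0.143 had an interval from -0.199 to 0.496 (exact permutation test, two-sided, p = 0.361). Acetaminophen had the highest RMS change of all, 1.24, and doxorubicin the lowest, 0.382. Since vehicle wells are shared and wells come from 2 batches of hepatocytes, the calls for single drugs describe these wells and not a population of animals.

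No gene separated the classes beyond the spread between drugs. Per gene, the mean of the 7 most concern values was compared with the mean of the 6 others, each value being a drug's log2 change against vehicle on the log2(CPM + 1) scale. Of 10191 genes tested, 0 passed (limma, adjusted p under 0.05, percent called 0), and the lowest adjusted p was 0.943. An unadjusted p under 0.05 was reached by 377 genes (3.7%), 198 of them higher and 179 lower in the most concern class. Counts summed per drug gave 0 genes by edgeR and 0 by DESeq2 as well, with 506 and 654 genes under an unadjusted p of 0.05, and lowest adjusted p-values of 0.869 (edgeR) and 0.150 (DESeq2). The standard error of a class difference was 0.251 for the median gene, and 110 genes differed by more than 1 on the log2 scale in their class means.

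The gene with the smallest p among those higher in the most concern class was Hspa4l, which encodes a chaperone of the HSP70 superfamily. Its vehicle level was 6.39 CPM on average. Its log2 change was between 0.39 and 2.13 over the 7 most concern drugs (median 0.75) and between -0.82 and 0.84 over the 6 others (median -0.21). Valproic acid, diclofenac and acetaminophen gave the 3 high values, and naproxen alone among the other drugs exceeded any most concern drug. The class difference was 1.30 (95% interval 0.56 to 2.03, limma adjusted p = 0.943). By edgeR, Hspa4l rose with 6 of the 7 most concern drugs and with 1 of the 6 others, and fell with 2 of the latter.

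Naaa, a lysosomal enzyme that hydrolyses N-acylethanolamines, ran from -0.05 to 2.39 with most concern drugs (median 0.51) and from -0.71 to 0.13 with the others (median -0.43), a difference of 1.25 (95% interval 0.51 to 1.99). It rose with 4 of 7 drugs and fell with 5 of 6, and only sulfasalazine among the most concern drugs was below ranitidine, the highest of the other class. Of the other genes chosen by a small p, Atp6v1e1, a subunit of the proton pump that acidifies lysosomes, differed by 0.91 (95% interval 0.32 to 1.49) and rose with 5 of 7 and 1 of 6 drugs. Pikfyve, a lipid kinase of the endosome, differed by 0.83, and Tmem41b, a membrane protein needed to form autophagosomes, by 0.66. These genes were taken by their rank among 10191 tests and not as a list, and none passed the adjusted threshold. Ccnh (cyclin H) differed by 0.75, Camkmt, a calmodulin methyltransferase, by 0.69, Tmsb15b2, of the actin-binding thymosins, by 0.97, Pcmtd1 by 0.57 and the unnamed transcript AABR07030911.1 by 0.69.

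Among genes lower in the most concern class, Ighmbp2, a helicase, had the smallest p of all genes tested (limma adjusted p = 0.943). Its log2 change was between -0.74 and -0.17 over the most concern drugs (median -0.43) and between -0.12 and 0.37 over the others (median 0.31), so the classes did not overlap. The difference was -0.65 (95% interval -1.0 to -0.31) from a vehicle level of 6.35 CPM. Ikbkg, the regulatory subunit NEMO of the kinase that activates NF-kB, ran from -1.97 to -0.45 with most concern drugs and from -0.34 to 0.14 with the others. It fell with all 7 most concern drugs and with 3 of the 6 others, a difference of -0.80 (95% interval -1.29 to -0.31) from a vehicle level of 47.3 CPM. Mindy1, a deubiquitinase, fell with all 7 and with 2 of 6 drugs and differed by -0.68.

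Tab1, an adaptor of the kinase TAK1 upstream of NF-kB, differed by less, -0.43, and fell with 2 of the 7 drugs. Prdm15, a zinc finger protein, differed by -0.47 and Meis3, a homeobox factor, by -0.56, and each fell with 6 of 7 drugs. Xaf1, an interferon-inducible antagonist of the apoptosis inhibitor XIAP, showed the widest spread of these genes. It ran from -1.75 (acetaminophen) to -0.25 in the most concern class and from -0.27 to 1.99 (caffeine) in the other, with a difference of -1.14. Abhd16a, a phospholipid lipase, differed by -0.58, Atn1, a transcriptional corepressor, by -0.55 and RGD1564854 by -0.76.

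The size of these differences depended on the setting. None of the 20 changed sign under the alternatives it could be computed for, out of 17 (scaling, pseudocount, filter, robust limma, batch, replicate block, plate, assay, count models and the class without the no concern drugs). The genes were chosen by this difference and most settings reuse the same wells, so no stability is read from the sign. In 15 of the 20 genes the size moved by more than 1.5 times. With a pseudocount of 5 CPM, which shrinks changes of low genes, 10 of the 20 differences were smaller by that factor, with Pikfyve at 0.54, Tmem41b at 0.42, Tmsb15b2 at 0.50, Camkmt at 0.33, Ighmbp2 at -0.40 and Meis3 at -0.23. Within plates 5 and 3, where chloramphenicol was the single drug of the less or no concern class, 8 were smaller, with Pikfyve at 0.35, Atp6v1e1 at 0.60, Ccnh at 0.40, AABR07030911.1 at 0.27 and Ighmbp2 at -0.34. Xaf1 was at -0.60 with the larger pseudocount and at -2.01 by DESeq2.

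**Figure D2:**
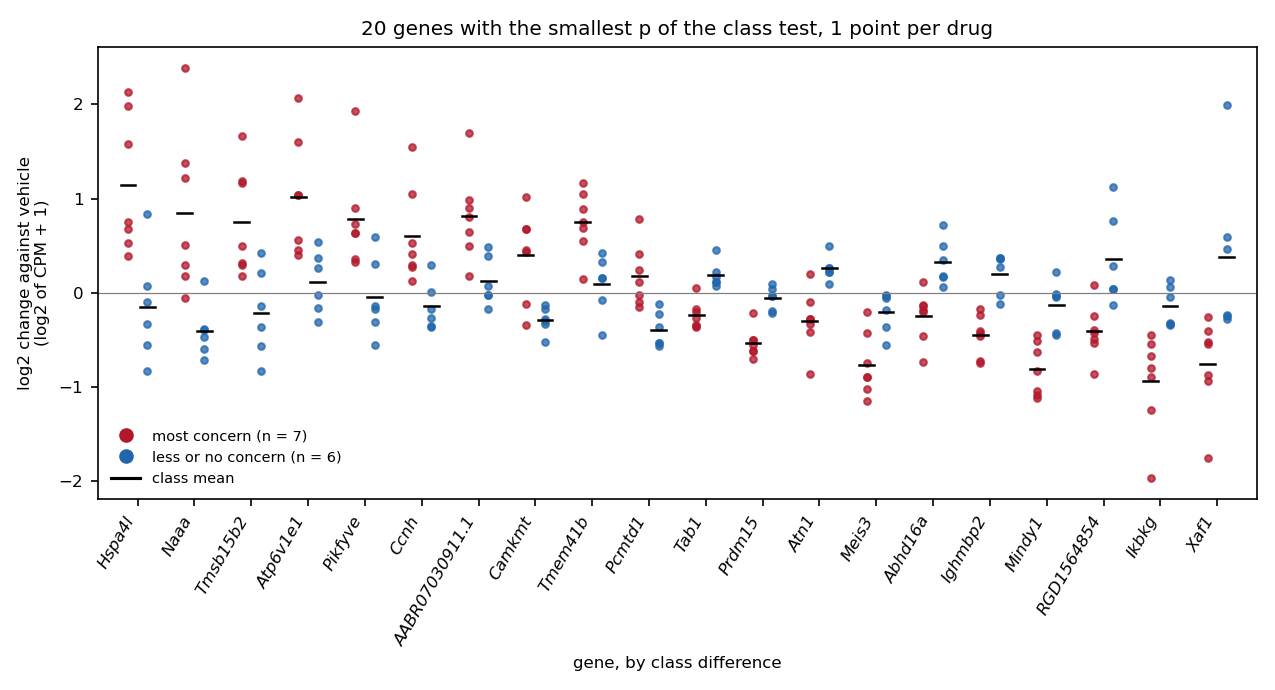
Log2 change against vehicle of the 20 genes with the smallest p of the class test, 10 in each direction, with 1 point per drug and a line at the class mean. In most of these genes the points of the 7 most concern drugs (red) and the 6 less or no concern drugs (blue) still overlap, and none passed the adjusted threshold.

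The classes did not overlap at all in 9 of the 10191 genes (0.0883%), a count that uses no model of the spread. These were Ighmbp2, Ikbkg, Prdm15, Tab1, Prickle3, Actr8, LOC100911672 and LOC100362980, lower in the most concern class, and Ncbp2, higher in it. Prickle3, Actr8, Ncbp2 and both LOC genes were singled out after their values were seen. Ncbp2, a subunit of the nuclear cap-binding complex, ran from 0.0025 to 0.66 with most concern drugs and from -0.32 to 5.3e-05 with the others. Actr8, an actin-related protein of a chromatin remodelling complex, ran from -1.13 to 0.07 and from 0.09 to 0.34. The gap between the classes was small beside the spread within them in both genes.

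The genes of 32 lists, chosen for the functions of hepatocytes and their responses to drugs, did not set the classes apart either. Over the 477 list genes tested, 0 passed the class test, and 16 lists had a median class difference below 0 and 16 above 0, beside a median of -3.09e-05 over all genes. The list medians lay between -0.63 (urea cycle and glutamine) and 0.44 (Kupffer cell and leukocyte markers). The sign of the median turned under at least 1 alternative setting in 23 of the 32 lists and under none in 9. It turned under 11 of 31 settings for efflux transporters, under 10 for ribosome biogenesis (-0.36 to 0.17), 9 for biliary markers (-0.09 to 0.90) and 8 for NRF2 targets (-0.30 to 0.18). It turned under 5 each for p53 targets, SREBP2 targets, apolipoproteins, and cell cycle and DNA replication. Drug medians within 1 class could differ far more, by more than 3 on the log2 scale for the PPAR alpha targets (-0.52 to 2.61 with most concern drugs).

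Genes of hepatocyte identity were lowest in the median with several drugs of most concern and with ranitidine of the other class. Hepatocyte identity genes (18 of 20 tested) had a drug median from -1.91 (diclofenac) to 0.44 (sulfasalazine) in the most concern class and from -1.08 (ranitidine) to 0.51 (caffeine) in the other, and a median class difference of -0.49. Of the 18 genes, 13 fell with diclofenac, 14 with ketoconazole, 13 with valproic acid, 12 with isoniazid, 9 with acetaminophen and 13 with ranitidine. Of all genes, 35.8%, 26.3%, 33.2%, 17.3%, 40.1% and 33.9% were lower with these drugs, in that order. In contrast, 10 rose with sulfasalazine, 11 with simvastatin and 11 with caffeine, beside 21.3%, 11.4% and 34.6% of all genes. Among most concern drugs, medians were -0.56 (isoniazid) or lower except with indomethacin (0.11) and sulfasalazine (0.44). In the other class ranitidine alone was as low, with chloramphenicol at -0.26, doxorubicin at -0.01 and the rest above 0. Alb, the gene of serum albumin, at 12715 CPM in vehicle wells, fell with 4 of the 7 most concern drugs and 5 of the 6 others, and differed by 0.14 (95% interval -0.63 to 0.91), between 0.02 and 0.38 with 1 drug left out.

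The median of the coagulation list was below 0 with every drug but sulfasalazine. In the coagulation list, all 27 genes tested fell with diclofenac (median -2.52), and 25 fell with ketoconazole, 25 with chloramphenicol and 24 with ranitidine, beside 35.8%, 26.3%, 17.2% and 33.9% of all genes. With caffeine 16 were lower and 6 higher (31.6% and 34.6% of all genes), and with sulfasalazine 5 were lower and 15 higher (19.6% and 21.3%). The median class difference was -0.16. Fgb, the beta chain of fibrinogen, ran from -2.59 to 0.78 in the most concern class and from -1.37 to 2.07 in the other, a difference of -1.54 (95% interval -2.92 to -0.16, limma adjusted p = 0.943). F9, coagulation factor IX, differed by 0.25 (95% interval -0.71 to 1.21), between 0.02 without ranitidine and 0.51 without diclofenac.

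The complement list had a median class difference of -0.37, and its drug medians ran from -2.19 (diclofenac) to 0.17 and from -1.54 (ranitidine) to 0.54 (doxorubicin). Masp1, a protease of the lectin pathway, fell with 6 of 7 and 5 of 6 drugs and differed by -0.75, or -0.46 without caffeine. The acute phase list differed by -0.05 in the median, and Apcs, serum amyloid P, by -0.68, or -0.43 without doxorubicin. Apolipoprotein genes had a median class difference of -0.12, and Apoa5, a regulator of plasma triglycerides, differed by -1.28 (95% interval -2.84 to 0.27), with 4.16 in caffeine wells the highest value and -0.64 without caffeine. The interval of Apoa5 held 0, as did those of Masp1 (-1.73 to 0.23) and F9.

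Both lists of amino acid and nitrogen metabolism had a median class difference below 0. The amino acid breakdown list (20 of 24 tested) had a median class difference of -0.59, with 18 of 20 differences below 0 in the class means. Of its genes, 18 fell with acetaminophen (median -2.55), 19 with diclofenac, 16 with isoniazid and 15 with ranitidine, beside 40.1%, 35.8%, 17.3% and 33.9% of all genes. Higher values were called for 9 with sulfasalazine, 9 with indomethacin and 13 with caffeine, beside 21.3%, 27.1% and 34.6% of all genes. Hal, histidine ammonia lyase, had a vehicle level of 21.7 CPM and ran from -4.23 (acetaminophen) to -0.40 with most concern drugs (median -1.28) and from -1.36 to 1.88 (caffeine) with the others (median -0.44). Its class difference was -1.88 (95% interval -3.31 to -0.45, limma adjusted p = 0.943). In the urea cycle and glutamine list (9 of 11 tested) the median class difference was -0.63, with drug medians from -1.88 (diclofenac) to 0.24 (indomethacin) with most concern drugs and from -1.78 (ranitidine) to 0.72 (caffeine) with the others. Of its genes, 7 fell with acetaminophen, 7 with diclofenac and 7 with valproic acid, and 6 with ranitidine, beside 40.1%, 35.8%, 33.2% and 33.9% of all genes.

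Bile acid and transport genes were measured in 3 lists. The bile acid synthesis list (7 of 12 tested) had a median class difference of -0.60 and ran from -2.73 (acetaminophen) to 0.59 (sulfasalazine) in the most concern class and from -0.34 to 0.32 in the other. Cyp27a1, the enzyme that starts the alternative pathway of bile acid synthesis, fell with 5 of 7 and 1 of 6 drugs and differed by -1.11 (95% interval -2.08 to -0.15, limma adjusted p = 0.943). Cyp7a1, the enzyme that starts the classic pathway, did not reach the minimum mean of 10 counts. Uptake transporters had a median of -0.28 with 0 of 6 differences above 0, and efflux transporters one of 0.10. The efflux median was 0.04 in each batch alone and -0.13 in the targeted (ST) assay.

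Of single transporters, Abcc3, an export pump of the basolateral membrane, differed by -0.88 (95% interval -1.67 to -0.10, limma adjusted p = 0.943), with 1.85 in caffeine wells the highest value. Slc10a5, a carrier related to the bile acid uptake transporters, differed by -0.76, between -1.21 without ranitidine and -0.41 without naproxen. Abcb11, the bile salt export pump, whose block by drugs is a known route to cholestasis, ran from -1.64 (valproic acid) to 1.47 (indomethacin) in the most concern class and from -0.57 to 1.25 (simvastatin) in the other. Its class difference was -0.30 (95% interval -1.35 to 0.74), or -0.06 without simvastatin and -0.59 without indomethacin. Abcb11 rose with 2 and fell with 3 of the 7, and rose with 2 and fell with 2 of the 6.

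**Figure D3:**
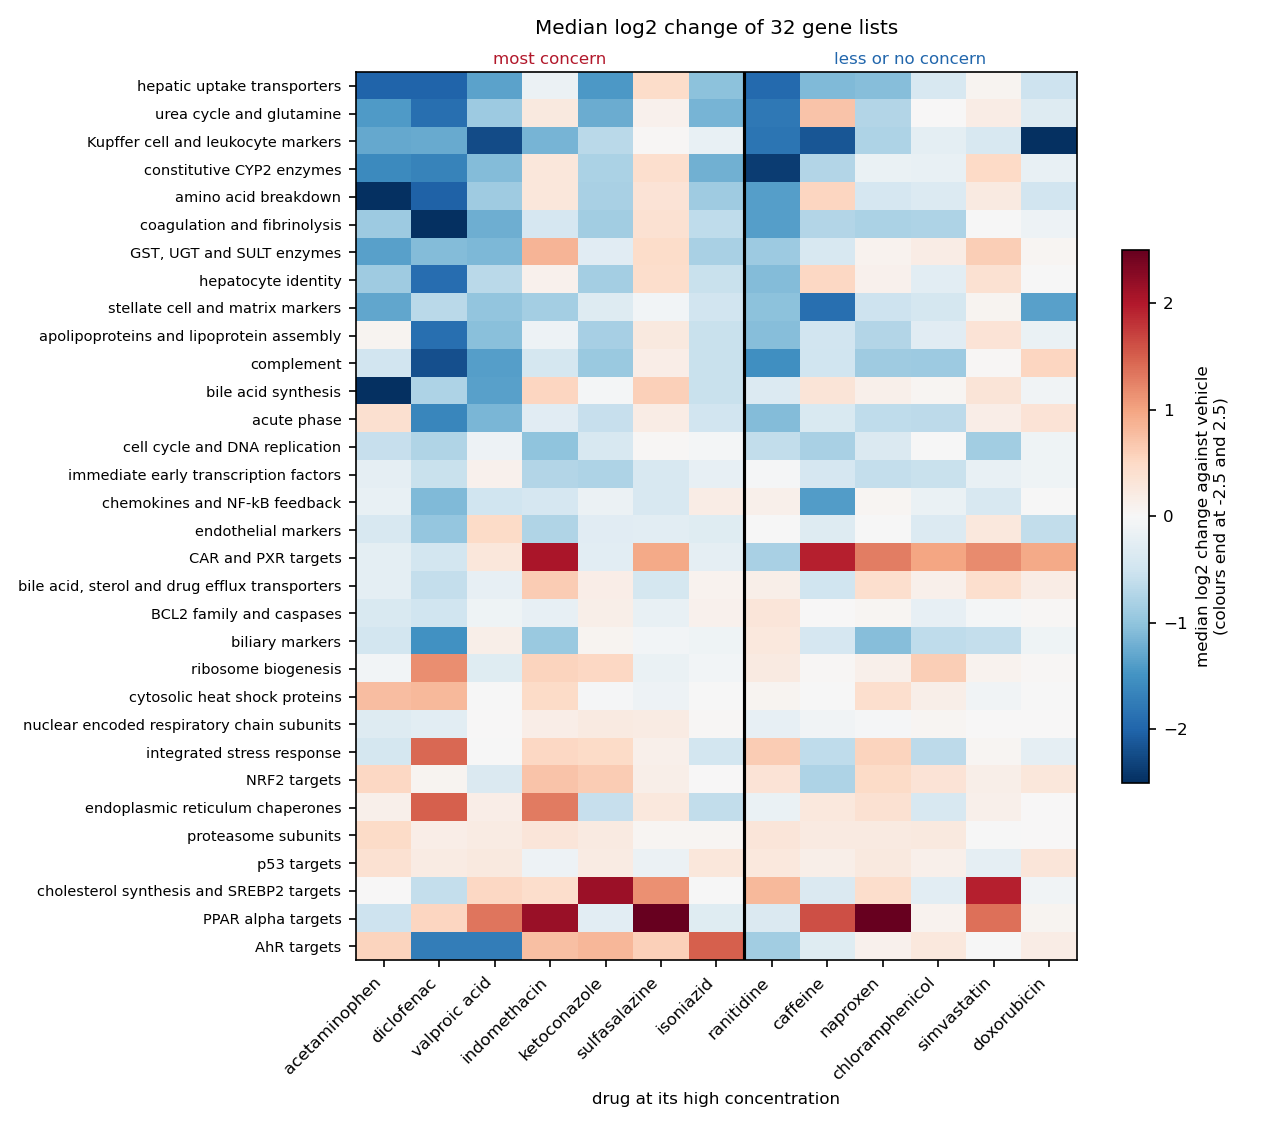
Median log2 change against vehicle of the genes tested in each of 32 gene lists (rows, sorted by the median of the most concern drugs) for the 13 drugs (columns), most concern to the left of the black line. Rows of strong colour change within a class, such as the PPAR alpha targets (from -0.52 to 2.61 on the left and from -0.36 to 3.94 on the right).

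Drug-metabolizing enzymes divided drugs within each class. The constitutive CYP2 enzymes (12 of 18 tested) had a median class difference of -0.50, and the class difference was below 0 in all 12 genes. The drug medians ran from -1.67 (diclofenac) to 0.43 (sulfasalazine) and from -2.38 (ranitidine) to 0.49 (simvastatin). Cyp2c11, the main male-specific P450 of rat liver, ran from -3.53 to 0.64 and from -3.57 to 1.29 and differed by -0.70 (95% interval -2.5 to 1.11). The Cyp2c11 difference was -0.22 without simvastatin and -1.19 without ranitidine. Cyp2c22 rose with 2 of 7 most concern drugs and with 5 of 6 others, with ranitidine (-3.02) apart, and differed by -1.87 (95% interval -4.15 to 0.41). The conjugating enzymes, which are glutathione S-transferases, UDP-glucuronosyltransferases and sulfotransferases, had a median class difference of -0.48. Gstm4, one of the glutathione S-transferases, fell with all 7 most concern drugs and with 3 of the 6 others and differed by -0.82 (95% interval -1.48 to -0.15, limma adjusted p = 0.943).

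Receptor targets differed between drugs of the same class. CAR and PXR targets (8 of 15 tested) had a median class difference of -0.56, with a class difference below 0 in all 8 genes. In the less or no concern class, 5 of 6 drugs had a median of at least 0.96, and ranitidine had -0.81. Among most concern drugs, indomethacin had 2.05 and sulfasalazine 0.94, and the other 5 lay between -0.45 and 0.28. Cyp2b1, the classic phenobarbital-inducible P450, was near 0 in vehicle wells (0.32 CPM) and reached 3.57 with caffeine, 2.04 with naproxen and 2.01 with indomethacin on the log2(CPM + 1) scale. The pseudocount compresses changes at so low a level, and the log2 changes that edgeR fitted to the Cyp2b1 counts were 5.47, 3.84 and 3.66. Its class difference was -1.04 (95% interval -2.29 to 0.21), or -0.59 without caffeine, and -2.24 in the ST assay. It rose with 2 of 7 and 4 of 6 drugs.

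AhR targets (6 of 8 tested) differed by 0.32 in the median, between -1.74 (valproic acid) and 1.49 (isoniazid) in the most concern class. Cyp1a1, the leading AhR target, ran from -4.20 (acetaminophen) to 2.18 (indomethacin) in that class and from -3.95 (ranitidine) to 0.64 in the other, a class difference of -0.22 (95% interval -2.59 to 2.14), which was -0.87 without ranitidine and 0.32 without acetaminophen. Tiparp, an AhR-induced ADP-ribosyltransferase, ran from 0.26 to 2.93 and from -0.23 to 0.57. It rose with 5 of 7 and 1 of 6 drugs and differed by 1.01 (95% interval 0.18 to 1.84, limma adjusted p = 0.943). Without acetaminophen the Tiparp difference was 0.73.

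PPAR alpha targets, which serve fatty acid oxidation, all rose with indomethacin, sulfasalazine, naproxen and simvastatin (23 of 23 each), with medians of 2.15, 2.61, 3.94 and 1.37, beside 27.1%, 21.3%, 27.6% and 11.4% of all genes. The first pair is of most concern and the second of less concern. Caffeine (21 of 23 higher) and valproic acid (19 of 23 higher) also raised most of them, and 14 of 23 rose with diclofenac, beside 34.6%, 33.5% and 36% of all genes. With acetaminophen 12 of 23 fell and with ranitidine 12, beside 40.1% and 33.9% of all genes. The median class difference was -0.37, with -0.02 in batch 1 and -0.57 in batch 2. Cyp4a1, a fatty acid hydroxylase, was at 1.66 CPM in vehicle wells and reached 8.47 on the log2 scale with naproxen, 7.65 with sulfasalazine, 7.07 with indomethacin and 6.49 with caffeine. With a class SD of 3.51 in one class and 3.79 in the other, its difference of -0.47 had an interval from -4.26 to 3.33. The Cyp4a1 difference turned to 0.59 without naproxen and was -1.35 without ranitidine. Acaa1a, a peroxisomal thiolase, differed by -0.71, or -0.45 without acetaminophen.

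Cholesterol synthesis genes and other SREBP2 targets all rose (19 of 19) with ketoconazole (median 2.15), simvastatin (1.94) and sulfasalazine (1.14), 2 drugs of most and 1 of less concern, beside 25%, 11.4% and 21.3% of all genes. Ketoconazole blocks a P450 of sterol synthesis and simvastatin its rate-limiting reductase. The median class difference was 0.21. Hmgcs1, the HMG-CoA synthase of this pathway, had 2.12 with simvastatin and 1.76 with ketoconazole and a class difference of -0.28 (95% interval -1.47 to 0.90), which was 0.10 without simvastatin and -0.61 without caffeine. Insig1, which holds back SREBP2 activation, rose with all 7 most concern drugs and with 4 of 6 others, fell with the other 2, and differed by 0.73 (95% interval -0.47 to 1.93), or 0.39 without chloramphenicol and 0.41 without doxorubicin.

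**Figure D4:**
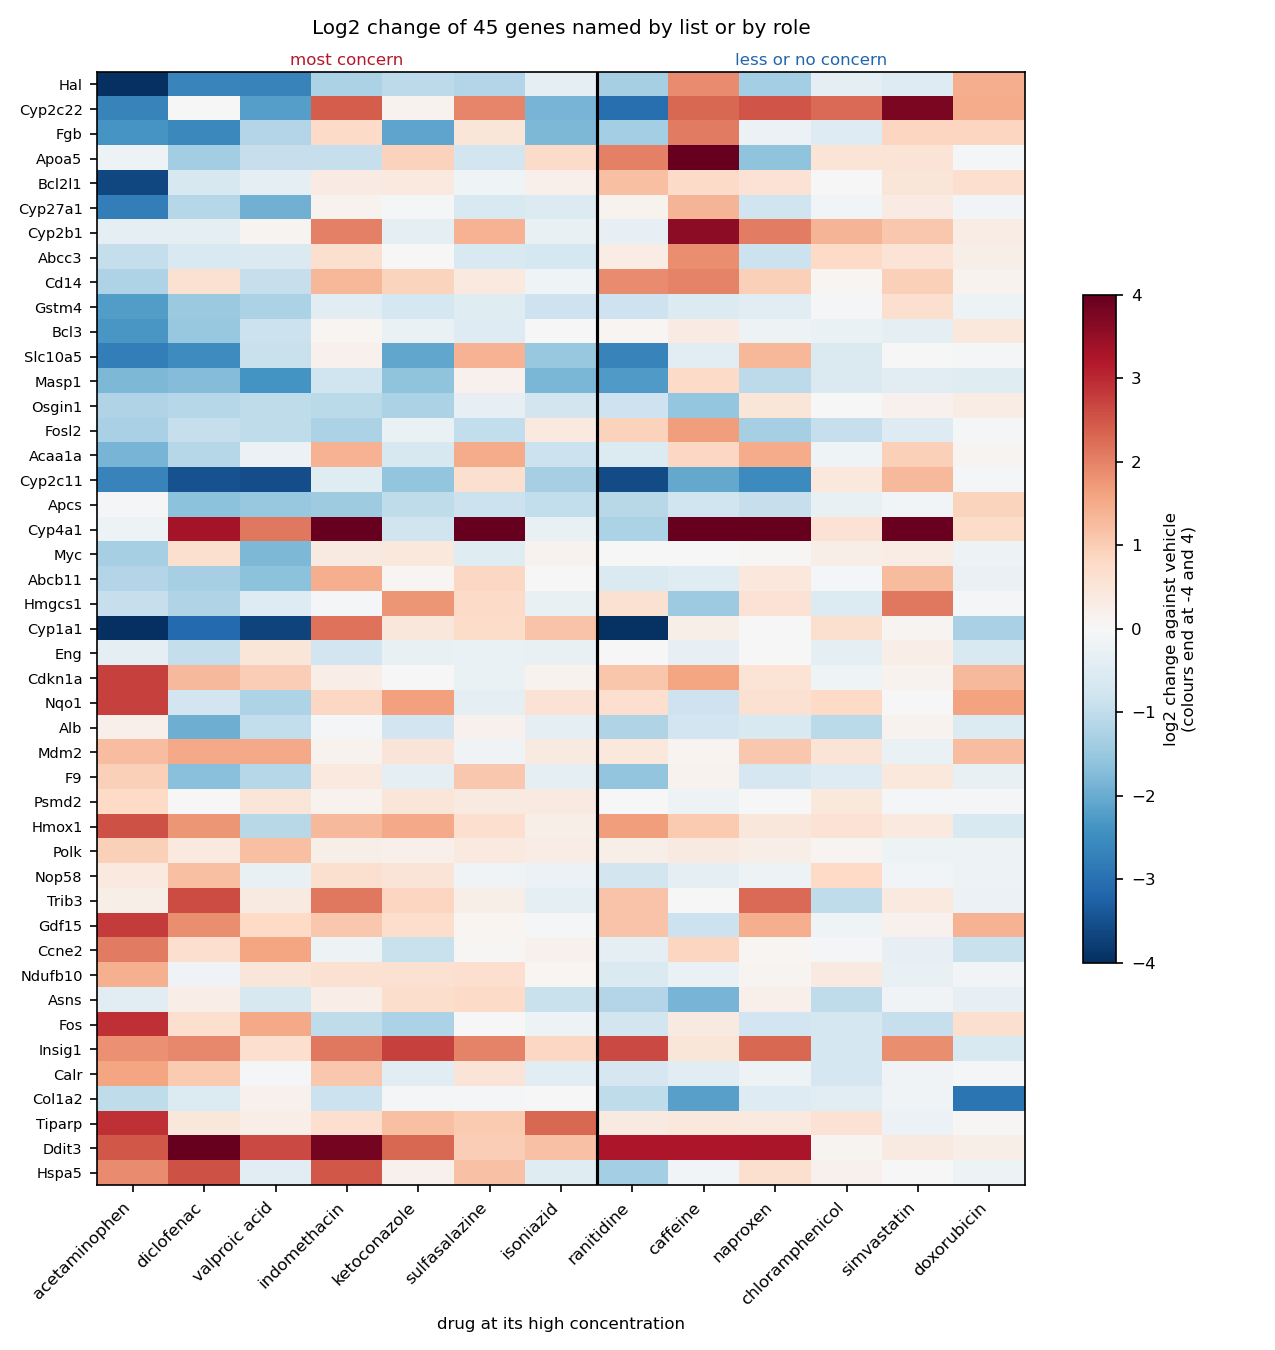
Log2 change against vehicle of 45 genes named by list or by role (rows, sorted by class difference from Hal at the top to Hspa5 at the bottom) for the 13 drugs (columns), most concern to the left of the black line. Values run from -4.23 (Hal, acetaminophen) to 8.47 (Cyp4a1, naproxen), and colours end at -4 and 4.

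Stress genes divided the drugs of most concern among themselves. The chaperones of the endoplasmic reticulum (14 of 20 tested) had a median class difference of 0.28. Of the 14, 11 rose with diclofenac (median 1.49) and 12 with indomethacin (1.30), while 11 fell with isoniazid and 9 with ketoconazole, all of most concern. Of all genes, 36% and 27.1% were higher with the first pair and 17.3% and 26.3% lower with the second. Hspa5 (BiP), the main chaperone of that compartment, had a vehicle level of 14.8 CPM and values of 2.54 with diclofenac, 2.47 with indomethacin, 1.90 with acetaminophen and 1.17 with sulfasalazine. It lay between -0.48 and 0.18 with isoniazid, valproic acid and ketoconazole, and between -1.36 (ranitidine) and 0.64 (naproxen) in the other class. The class difference was 1.19 (95% interval 0.06 to 2.33, limma adjusted p = 0.943). Calr, calreticulin, rose with 4 and fell with 2 of the 7, fell with 3 of the 6, and differed by 0.83 (95% interval 0.14 to 1.52, limma adjusted p = 0.943).

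Targets of the integrated stress response (25 of 33 tested) had a median class difference of 0.11, which was -0.02 in batch 1 and 0.33 in batch 2. Their drug medians ran from -0.46 (isoniazid) to 1.43 (diclofenac) and from -0.65 (chloramphenicol) to 0.64 (ranitidine). Ddit3, the transcription factor CHOP, rose with all 7 most concern drugs and with 3 of the 6 others. Its values were between 0.97 and 6.17 (diclofenac) in the most concern class and split in the other, with caffeine, naproxen and ranitidine at 3.23, 3.26 and 3.22 and chloramphenicol, doxorubicin and simvastatin between 0.10 and 0.37. The class difference of 1.06 had an interval from -0.74 to 2.86, and without diclofenac the Ddit3 difference was 0.50. Trib3, a pseudokinase induced by CHOP, differed by 0.43 (95% interval -0.75 to 1.62, and between 0.14 without diclofenac and 0.80 without naproxen), and Asns, asparagine synthetase, by 0.72 (95% interval -0.06 to 1.49). Gdf15, a secreted stress hormone, rose with 5 of 7 and 3 of 6 drugs and differed by 0.52 (95% interval -0.53 to 1.56), or 0.22 without acetaminophen and 0.24 without caffeine.

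NRF2 targets (24 of 28 tested) had a median class difference of 0.05. Hmox1, heme oxygenase 1, rose with 5 of 7 and 3 of 6 drugs and differed by 0.40 (95% interval -0.69 to 1.49), between 0.14 without acetaminophen and 0.75 without valproic acid. Nqo1, a quinone reductase, was highest with acetaminophen (2.74) and lowest with valproic acid (-1.23), both of most concern, and its class difference of 0.01 turned to -0.01 when CPM was scaled by the total count, to -0.36 without acetaminophen and to 0.30 without valproic acid. Osgin1, an oxidative stress response gene, fell with all 7 most concern drugs and with 2 of 6 others and differed by -0.73 (95% interval -1.38 to -0.08, limma adjusted p = 0.943), against the direction of Hmox1. Targets of p53 (19 of 27 tested) differed by 0.04 in the median. Cdkn1a, the cell cycle inhibitor p21, and Mdm2, which degrades p53, differed by -0.02 (95% interval -0.99 to 0.95) and 0.22 (95% interval -0.48 to 0.92), and Polk, a translesion polymerase, by 0.43. With 1 drug left out the Cdkn1a difference lay between -0.36 and 0.15 and the Mdm2 difference between 0.06 and 0.36. Cytosolic heat shock genes had a median class difference of 0.10.

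For genes of cell death, early response and inflammation the median class differences lay between -0.19 and 0.15. Single drugs moved further. Chemokines and NF-kB feedback genes had a median of -1.40 with caffeine, and immediate early factors one of -0.77 with ketoconazole. The BCL2 family and caspases (23 of 30 tested) had a median class difference of -0.19. Bcl2l1, which encodes the survival factor BCL-XL, fell with acetaminophen to -3.64, while the other 6 most concern drugs lay between -0.65 and 0.41. It rose with 5 of the 6 less or no concern drugs, and differed by -1.17 (95% interval -2.31 to -0.03, limma adjusted p = 0.943). Without acetaminophen the Bcl2l1 difference was -0.65. Immediate early factors had a median class difference of 0.15, with Fos at 0.73 (95% interval -0.53 to 1.98, and 0.30 without acetaminophen), Myc at -0.36 (95% interval -1.12 to 0.41, and -0.11 without valproic acid) and Fosl2 at -0.73 (-0.38 without caffeine). Chemokines and NF-kB feedback genes had one of -0.03, and Bcl3, a nuclear regulator of NF-kB, differed by -0.76 (95% interval -1.52 to -0.01, limma adjusted p = 0.943), or -0.50 without acetaminophen. The chemokine Cxcl1 did not reach the minimum mean of 10 counts.

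Housekeeping lists moved with several drugs of both classes. Of the ribosome biogenesis genes (20 tested), 19 rose with diclofenac (median 1.16), 17 with ketoconazole (0.52) and 16 with chloramphenicol (0.61), beside 36%, 25% and 16.1% of all genes. With indomethacin 14 rose, beside 27.1% of all genes. Of the cell cycle and DNA replication genes (18 tested), 14 fell with indomethacin (median -1.01) and 13 with simvastatin (-0.88), beside 27.6% and 12.5% of all genes. Caffeine lowered 12, diclofenac 11 and ranitidine 10, beside 31.6%, 35.8% and 33.9%. Of 23 proteasome genes, 17 rose with acetaminophen, 13 with ranitidine and 13 with indomethacin, beside 38.8%, 32.3% and 27.1% of all genes. The median class difference was 0.01 for ribosome biogenesis, 0.07 for proteasome subunits, 0.08 for nuclear encoded respiratory chain subunits and 0.04 for cell cycle and DNA replication. Ndufb10, a subunit of respiratory complex I, rose with 5 of 7 and 1 of 6 drugs and differed by 0.66 (95% interval 0.16 to 1.17, limma adjusted p = 0.943). Psmd2, of the proteasome cap, differed by 0.37, Nop58, a protein of box C/D ribonucleoproteins, by 0.43 (0.28 without diclofenac), and Ccne2, cyclin E2, by 0.62 (0.35 without acetaminophen).

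Markers of other cell types varied by list and drug. Kupffer cell and leukocyte markers (8 of 15 tested) had drug medians from -2.24 (valproic acid) to 0.03 (sulfasalazine) and from -2.52 (doxorubicin) to -0.25 (chloramphenicol), with a median class difference of 0.44. Of the 8, 7 fell with valproic acid and 6 with doxorubicin, beside 33.2% and 10.3% of all genes. Only 2 fell with isoniazid and 0 with sulfasalazine, beside 17.3% and 19.6%. The median of the stellate cell list was below 0 with every drug but simvastatin. Biliary medians were above 0 with ranitidine (0.27), valproic acid (0.14) and ketoconazole (0.07). Cd14, which hepatocytes also express, went the other way and differed by -0.87. The stellate cell and matrix list differed by 0.22 in the median, and its member Col1a2, a chain of type I collagen, by 0.87 (95% interval -0.02 to 1.75), or 0.53 without doxorubicin. Col1a2 was lowest with doxorubicin (-2.92) and caffeine (-2.18). Of the endothelial list only Eng was tested (-0.18, and -0.08 without diclofenac), and the biliary list differed by 0.10.

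Drugs of the same class were not closer to each other in their whole profiles than drugs of different classes. The distance between the profiles of 2 drugs, given as the RMS difference of their log2 changes over all genes, ran from 0.466 (chloramphenicol and simvastatin) to 1.30. It averaged 0.840 between drugs of different classes and 0.866 between drugs of the same class, a difference of -0.0257 (exact permutation test, two-sided, p = 0.374). With 1 drug left out this difference lay between -0.0477 (without caffeine) and -0.000199 (without sulfasalazine). Drugs of most concern were 0.926 apart on average and those of less or no concern 0.782. The batch 1 and batch 2 profiles of the same drug, each against the vehicle wells of its batch, were between 0.312 and 0.508 apart. Unlike the distances between drugs, these values hold the vehicle wells and rest on single batches, so they are not the error of those distances.

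The closest drug was of the same class for 7 of the 13 drugs. Isoniazid and ketoconazole were each other's closest drug (0.485), and so were indomethacin and naproxen (0.477), NSAIDs of different classes. Diclofenac, the third NSAID, was closest to ranitidine (0.758) and sulfasalazine to simvastatin (0.492). Acetaminophen stood farthest from all others, with 1.13 to diclofenac as its closest drug. The first principal component of the 13 profiles carried 30.3% of the variance, and 10.9% of its variance lay between the classes, where a class with no relation to the values takes 8.33% on average. In the second component (17.7% of the variance) and the third (16.4%), the share between classes was 0.0709% and 4.44%. It was highest, among the first 6 components, in the fifth, which carried 7.83% of the variance and had 19.9% of it between the classes.

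**Figure D5:**
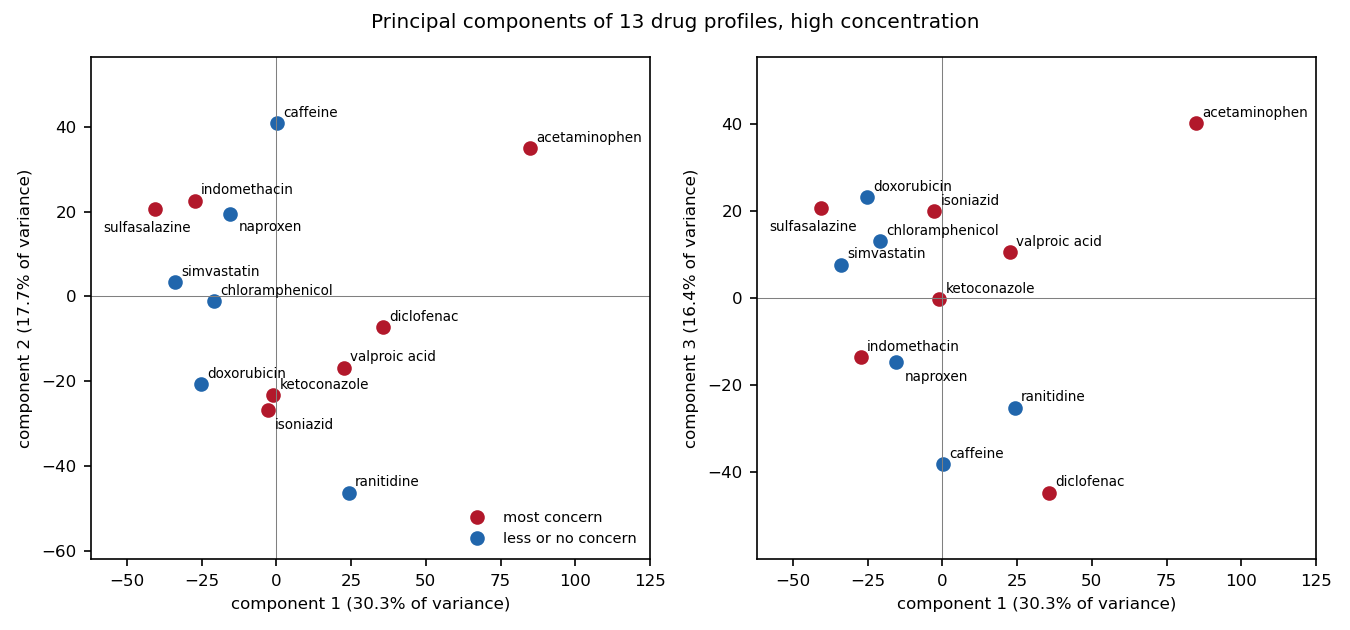
Principal components of the 13 drug profiles at high concentration, components 1 and 2 on the left and 1 and 3 on the right, with 1 point per drug, red for most and blue for less or no concern. Acetaminophen lies alone at 84.7 on component 1, and points of both colours share the rest of the plane.

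At low concentration no gene passed the class test either. In the wells that received the smaller concentration of the same 13 drugs (78 wells, vehicle wells shared), 0 of 10191 genes passed (limma, lowest adjusted p = 0.828), and 432 genes had an unadjusted p under 0.05. The median standard error was 0.0853, smaller than at high concentration, and 2 genes differed by more than 1 on the log2 scale. The classes did not overlap in 1 gene (0.00981%), Fggy, a carbohydrate kinase singled out after its values were seen, with a difference of 0.26. List medians of the class difference lay between -0.13 and 0.27. A direct test of the class difference at high against low concentration called 0 genes (limma, lowest adjusted p = 0.966, 271 genes under an unadjusted p of 0.05). Over the 20 genes with the smallest p at high concentration, chosen there, the low concentration differences ran from -0.20 (Ighmbp2) to 0.24 (Pcmtd1). These were the 2 with an unadjusted p under 0.05 at low concentration (limma, 0.0103 and 0.0107), while Hspa4l differed by 0.02 and Ikbkg by -0.13.

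The batches and the targeted assay were compared as well. The difference between batches passed in 0 genes (limma, lowest adjusted p = 0.919, 524 genes under an unadjusted p of 0.05). In 3 of the 32 lists the median class difference had opposite signs in batches 1 and 2, which were the integrated stress response (-0.02 and 0.33), the acute phase list (0.01 and -0.18) and ribosome biogenesis (0.04 and -0.02). In the ST assay of the same lysates, 0 of 1760 genes passed (limma, lowest adjusted p = 0.993, 38 genes under an unadjusted p of 0.05). The classes did not overlap in 1 gene (0.0568%), SNURF, also singled out after its values were seen. Hspa5 differed by 1.14 in that assay, Calr by 0.81, Bcl2l1 by -1.09 and Naaa by 1.18.

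Plate and class were partly confounded. Of the most concern drugs, 3 were on plates 4 and 2 and 4 on plates 5 and 3, whereas 5 of the 6 others were on plates 4 and 2. The 3 vehicle wells of batch 1 were all on plate 4, so in that batch 4 of the 7 most concern drugs and 1 of the 6 others were set against vehicle wells of another plate. In batch 2 both plates held 3 vehicle wells, and in that batch alone 0 genes passed the class test (limma, lowest adjusted p = 0.958). The vehicle mean of a batch is the same for all drugs and so cancels in a class difference, but not in the calls of single drugs. With the plate set as a covariate 0 genes passed (limma, lowest adjusted p = 0.991). Within plates 4 and 2, with 3 against 5 drugs, 0 genes passed (lowest adjusted p = 0.939). Within plates 5 and 3 chloramphenicol was the single drug of its class, so that test assumes that it varies as the other drugs do, and 0 genes passed (lowest adjusted p = 0.9998).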

How the data were processed

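The lysates were run in the TempO-Seq ST and WT assays. The authors aligned reads to rn6 with STAR (version 2.5.3a, as also in the submitters' processing notes), counted them per probe with the maker's software and deposited raw counts without normalization. No molecular identifiers are described, so counts are reads. Probes of 1 symbol were summed here (22253 WT probes, 20946 genes), and genes averaging 10 or more counts per WT well entered the tests (10191). Cyp7a1 and Cxcl1 were not among them. Counts were scaled with TMM to CPM. Log2(CPM + 1) was averaged over 3 wells, set against the vehicle wells of its batch and averaged over 2 batches. The pseudocount of 1 understates changes of low genes, and shallow wells are least precise there.

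DILI classes came from the study's list of chemicals. Classes were compared with limma 3.58.1 (13 drug values) and each drug with vehicle by edgeR 4.0.16 (quasi-likelihood, all WT wells, batch as a term) in R 4.3.3, two-sided with Benjamini-Hochberg adjustment. DESeq2 1.42.0 was an alternative. The log scale test was the main one because averaged log2 CPM changes per drug were the measure compared. Scripts were tested on simulated data. Members, lists and tests were chosen with earlier results of these data known. Named were the 10 genes with the smallest p in each direction, the gene with the smallest p of each of 32 lists, and 18 tested genes fixed by role; the genes of 3 lists are not reported here. Batches pair the values because each had its own isolate, library preparation and sequencing, whose parts cannot be told apart. Over 78 pairs of drugs the differences in log2 CPM between batches, taken without the vehicle wells, correlated across genes. The r ran from 0.235 to 0.782 (median 0.551), and genes are not independent. P-values of single drugs measure the spread of wells, which are technical replicates within a batch. The authors' viability values were not used.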

Additional observations from a re-analysis of the deposited data

Results flagged for a closer look

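Among the 7 or 6 drugs of a class, single drugs lay far from the others in 11 of 198 sets of values examined (65 genes and 32 lists, and size measures), by Dixon's ratio of the gap to the range. Chance alone gives such a gap in about 5% of sets.

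Acetaminophen was the distant drug in 2 genes of the most concern class. Bcl2l1, a survival factor of the BCL2 family, was at -3.64 with acetaminophen and at -0.65 with the next drug. Pikfyve was at 1.93, against 0.90. Ketoconazole had the highest value of Prdm15 in that class, -0.22 (next drug -0.50).

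In the other class, ranitidine had -3.02 for Cyp2c22, where the next drug had 1.5, and a median of -0.81 for the CAR and PXR targets, where the next drug had 0.96. Caffeine had a median of -0.49 for efflux transporters (next drug 0.12), of -0.76 for NRF2 targets (0.15) and of -1.40 for chemokines and NF-kB feedback genes (-0.39). Chloramphenicol, an inhibitor of bacterial and mitochondrial ribosomes, had the highest median of ribosome biogenesis genes, 0.61 (next drug 0.22), and the highest Psmd2, 0.41 (next drug -0.02). Simvastatin had the lowest median of p53 targets, -0.22 (next drug 0.12).

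WY14643 has no concern class and entered no class comparison. At its high concentration, 5234 genes were called against vehicle in its wells (edgeR, adjusted p under 0.05).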

How the results depend on the processing

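The class test called 0 genes under each of its 31 alternatives (other scaling, pseudocounts, filters, robust limma, single batches, each drug left out, other codings of the class, plates, the ST assay, edgeR and DESeq2), with a lowest adjusted p of 0.150 (DESeq2). Another fit took the 26 drug by batch values, with the drug as replicate block and the batch as a term. The correlation between the batches of a drug was 0.854, and 0 genes were called there too (limma, lowest adjusted p 0.970). The number of genes whose drug values did not overlap between classes, 9, was 16 in batch 1 alone and 1 of 1760 in the ST assay. With fewer drugs it can only stay or rise, by construction: it was 95 without the no concern drugs and 11 to 55 with 1 drug left out, the highest without chloramphenicol, and no stability is read from it. The difference in genes called stayed between 849 and 1804 with 1 drug left out, and that in RMS change between 0.0634 and 0.211. Leaving out 1 drug moved the class difference by more than 1.5 times in 30 of the 65 genes named and turned its sign in 5 (Cdkn1a, Cyp1a1, Cyp4a1, Hmgcs1 and Nqo1). Of 2059 values for named genes under alternatives, 58 had another sign than the main value, as had 88 of 991 list medians. Scaling by total count moved the median log2 change of all genes to -0.41 with acetaminophen and to 0.23 with valproic acid, and the median class difference to -0.0140. The ordered score of concern gives a difference per step of concern, so its values are not on the scale of the others. The standard error of a class difference in the median gene was 0.251 at high and 0.0853 at low concentration, each from 13 drugs, and the part of read depth in it was not tested.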
